A study of Homo sapiens with 18 samples.

Results

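The 10 genes described here govern the entry of glucose into glycolysis: the facilitative glucose transporter genes SLC2A1, SLC2A3, SLC2A4, SLC2A6 and SLC2A8, the hexokinase genes HK1 and HK2, and PFKFB2, PFKFB3 and PFKFB4. They were chosen by name, and their expected counts per transcript were summed to genes. Of the 34255 genes so obtained, 8 were members and all 8 passed the filter on low counts. SLC2A4 (chromosome 17, 7281667 to 7288257 of GRCh38) and SLC2A6 (chromosome 9, 133471095 to 133479137) were not analysed here. The libraries come from HEK293 cells, a line derived from human embryonic kidney, either wildtype, β-arrestin1/2 KO (made by CRISPR–Cas9 against ARRB1 and ARRB2) or Gαs KO (made likewise against GNAS). All 3 lines carried a transfected wild type β2AR plasmid, were serum starved overnight, and 48 h after transfection received vehicle (basal) or 1 μM isoproterenol, a β-adrenergic agonist, for 1 h. There were 3 biological replicates in each of the 6 groups, 18 libraries in all. Each genotype is represented by 1 cell line, so that a difference between lines cannot be told apart from a difference between independently grown derivatives.

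Glucose crosses the plasma membrane by facilitated diffusion through the GLUT proteins that SLC2A genes encode. SLC2A1 (GLUT1) serves basal uptake in most cells, SLC2A3 (GLUT3) is a high-affinity transporter best known from neurons, SLC2A4 (GLUT4) is the insulin-regulated transporter of muscle and fat, and SLC2A6 (GLUT6) and SLC2A8 (GLUT8) encode largely intracellular proteins. Hexokinases trap glucose in the cell as glucose 6-phosphate. PFKFB enzymes make and break down fructose 2,6-bisphosphate, the strongest activator of phosphofructokinase-1, the committing step of glycolysis. The β2-adrenergic receptor signals through Gαs and adenylyl cyclase to cAMP and PKA, while β-arrestins bind the activated receptor and end G protein coupling.

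Totals of expected counts ran from 17908597 to 25019834 per library. Normalized counts are gene sums scaled between libraries by the TMM method of edgeR. TPM values, in which counts are divided by annotated transcript length and rescaled to one sum per library, were used to compare genes with each other. In such bulk libraries fewer cells with a transcript and less of it per cell cannot be told apart. A gene is called where edgeR's quasi-likelihood test, fitted to 15519 genes in all 18 libraries, gave a Benjamini-Hochberg adjusted p under 0.05. Wildtype basal replicate 1 stood apart, with a mean GC content of 52.49% against 49.15 to 50.1% in the other 17 libraries. All groups shared their estimate of the spread, so this library also weighs on comparisons without it. Leaving it out raised the genes called with isoproterenol in β-arrestin1/2 KO cells from 175 of 15519 to 1849 of 15773. The shares of all genes given below come from the fit with this library, unless stated. GNAS lay between 1173 and 1365 normalized counts in Gαs KO libraries and between 20419 and 33552 in the other 2 lines. ARRB2 had between 291 and 441 in β-arrestin1/2 KO libraries and at 1371 or more elsewhere, whereas ARRB1 was at 725 to 832 in them and was not called against wildtype cells at basal (log2 difference -0.27, adjusted p = 0.14, edgeR). RNA counts do not measure protein, and the authors reported by Western blot that both β-arrestins were lost in this line. All 6 markers of HEK293 cells passed the filter, with a summed TPM of 1740 to 2210 in 2 of the lines and of 2920 to 3050 in Gαs KO cells, while the fibroblast markers COL1A2 and DCN, the blood cell markers PTPRC and CD3E and the hepatocyte markers APOA1 and APOB stayed under 1 TPM in every library. The summed TPM of the 5 fibroblast markers was at most 24.6, that of the 3 blood cell markers 1.57 to 7.57 and that of the 3 hepatocyte markers at most 1.84.

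Per length, HK1 (ENSG00000156515, chromosome 10, 69269984 to 69401884 of GRCh38) was the most abundant member, with a median of 80.9 TPM over the 18 libraries. SLC2A1 (ENSG00000117394, chromosome 1, 42925375 to 42959176) followed at 47.3 TPM, SLC2A3 at 28.6, PFKFB3 at 18.9, SLC2A8 at 16.1 and HK2 at 8.76 TPM. PFKFB2 (4.22 TPM) and PFKFB4 (2.91 TPM) were the least abundant. On GRCh38 these genes are SLC2A8 (ENSG00000136856) at 127397138 to 127408424 of chromosome 9, HK2 (ENSG00000159399) at 74833981 to 74893359 of chromosome 2, PFKFB2 (ENSG00000123836) at 207034366 to 207081024 of chromosome 1, PFKFB3 (ENSG00000170525) at 6144934 to 6254644 of chromosome 10 and PFKFB4 (ENSG00000114268) at 48517684 to 48562015 of chromosome 3. The place of SLC2A1 depends on transcripts not annotated as protein-coding, among them SLC2A1-202, of 578 bases, with 17.7% of its counts. With protein-coding transcripts only, SLC2A3 gave 51.9% of the summed TPM of SLC2A1, SLC2A3 and SLC2A8 in wildtype basal. That scale was chosen after seeing the data. Members differed in how far they varied between libraries. SLC2A3 ran from 479 to 8295 normalized counts and HK2 from 321 to 1422, whereas SLC2A8 stayed between 153 and 297 and PFKFB3 between 564 and 870. PFKFB4, with 31.7 to 124 normalized counts, was measured from few reads and had the widest error of the 8.

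**Figure D1:**
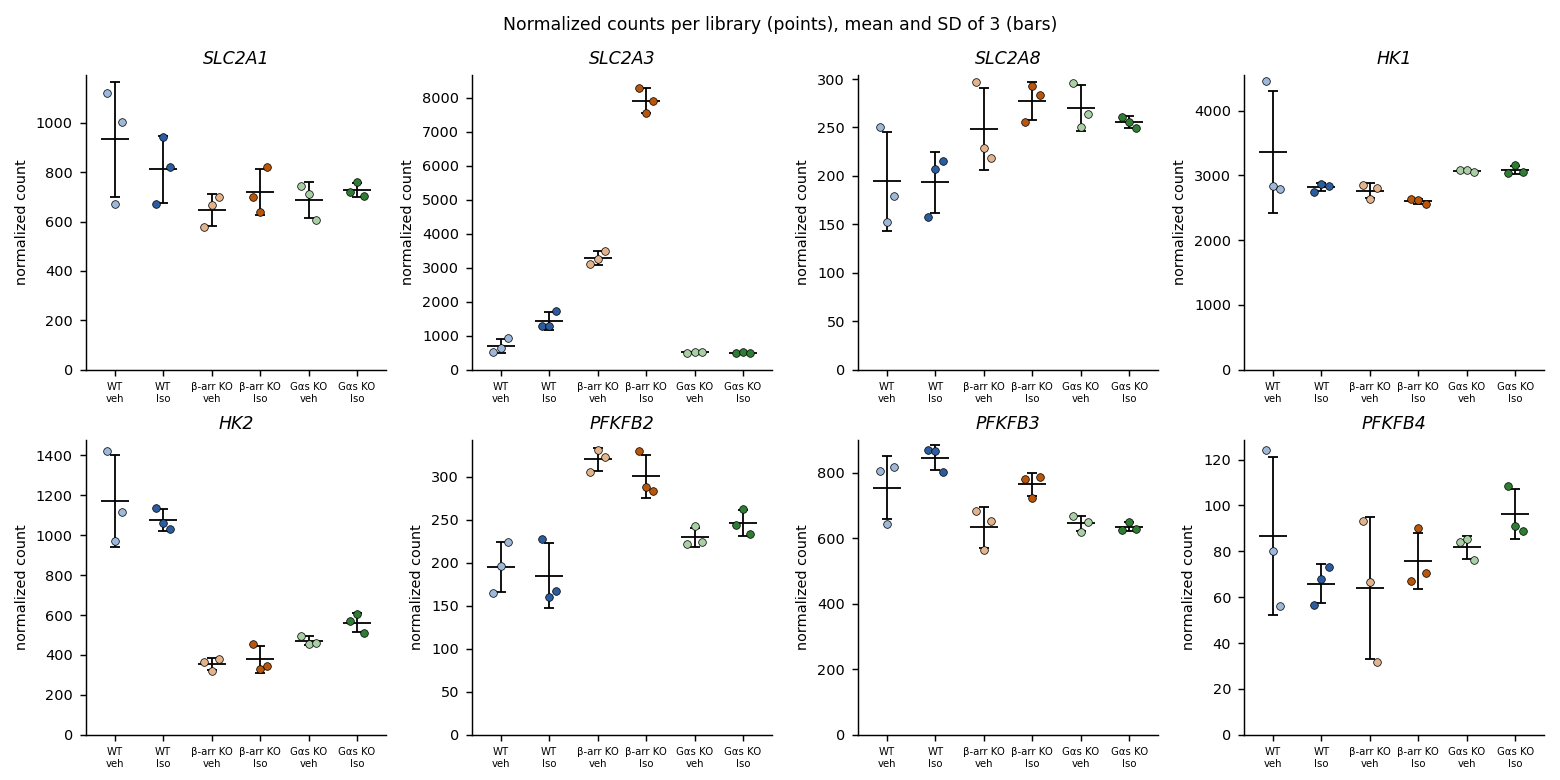
Normalized counts (vertical axis, from 0) of the 8 measured members in each of the 18 libraries, by cell line and treatment (veh, vehicle; Iso, isoproterenol); points are libraries and bars the mean and SD of 3. SLC2A3 climbs to between 7561 and 8295 in β-arrestin1/2 KO cells with isoproterenol, and HK2 is lower in all 12 KO libraries than in any wildtype library.

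SLC2A3 was the member that changed with isoproterenol. In wildtype cells it had 513, 632 and 920 normalized counts at basal and 1273, 1296 and 1737 after 1 h of isoproterenol. The groups did not overlap, and the fold over the basal mean was 2.08 ± 0.38 (SD, n = 3). Its log2 fold change was 1.06, with a standard error (SE) of 0.16, and edgeR's quasi-likelihood test gave an adjusted p of 0.0026. SLC2A3 was 1 of 8 measured members called, against 0.464% of all genes tested. The call was lost when the fit held the wildtype libraries alone (adjusted p = 0.95, the highest of 30 alternatives, whose lowest was 3.6e-08), with the same log2 fold change.

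The β-arrestin1/2 KO libraries held SLC2A3 at 3101, 3251 and 3497 normalized counts at basal and at 8295, 7561 and 7897 with isoproterenol, again without overlap. The fold was 2.41 ± 0.11 (SD, n = 3) and the log2 fold change 1.27 (SE 0.16, adjusted p = 0.00015, edgeR). Here too SLC2A3 was the member called, 1 of 8, against 1.13% of all genes. The basal libraries of this line had a mean GC content of 49.76 to 50.1% and those with isoproterenol 49.29 to 49.43%. The mitochondrial share of their counts also did not overlap, at 1.7, 2.66 and 2.29% at basal and 3.05, 2.97 and 3.32% with isoproterenol, and its part in the SLC2A3 difference was not tested. Over 30 alternatives, offsets for GC content and transcript length among them, the SLC2A3 log2 fold change was 1.23 to 1.31 and the call was kept in each.

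In Gαs KO cells the SLC2A3 values overlapped: 490, 515 and 511 normalized counts at basal and 481.5, 519 and 479 with isoproterenol. The log2 fold change was -0.03 (SE 0.16, adjusted p = 1, edgeR). None of the 8 members was called in this line, where 0% of all genes were, and 0 of 8 members had an unadjusted p under 0.05. DESeq2's Wald test called 0 of the members as well. Over all genes, 163 had an unadjusted p under 0.05 in edgeR and 8 were called by DESeq2. HK2 (498, 456 and 460 at basal, 571.5, 605 and 509 with isoproterenol) and PFKFB4 (84, 85.3 and 76.1 against 108.6, 91 and 88.7) did not overlap between treatments in Gαs KO cells, with adjusted p-values of 1 for both. The share of all genes without overlap was not counted, for this or any other comparison, so no overlap is a description of the values only.

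The response itself was then compared between lines as an interaction. The SLC2A3 response in β-arrestin1/2 KO cells exceeded that in Gαs KO cells by 1.304 on the log2 scale (SE 0.22, adjusted p = 0.0096, edgeR), the 1 member called for this difference, against 0.406% of all genes. The Gαs KO response was lower than the wildtype response by a similar size, with a log2 difference of -1.10 (SE 0.23), but the adjusted p was 0.091. So 0 of 8 members were called there by edgeR, against 0.161% of all genes, with 1 (SLC2A3) at an unadjusted p under 0.05 and 1 called by DESeq2. Over the alternatives its adjusted p ran from 0.0013 to 0.6. Leaving out wildtype basal replicate 1 brought this SLC2A3 difference to -0.92 (adjusted p = 0.035), and leaving out wildtype basal replicate 3 to -1.36 (adjusted p = 0.0013, edgeR). Between β-arrestin1/2 KO and wildtype cells the SLC2A3 responses differed by 0.21 on the log2 scale (SE 0.22, adjusted p = 1), and -0.06 without wildtype basal replicate 3. None of the 8 members was called for that difference by edgeR, against 0.168% of all genes. An unadjusted p under 0.05 in edgeR was reached by 0 members, against 864 of all 15519 genes. DESeq2 called 0 members, against 99 of 23880 genes. These 3 differences share libraries with one another.

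**Figure D2:**
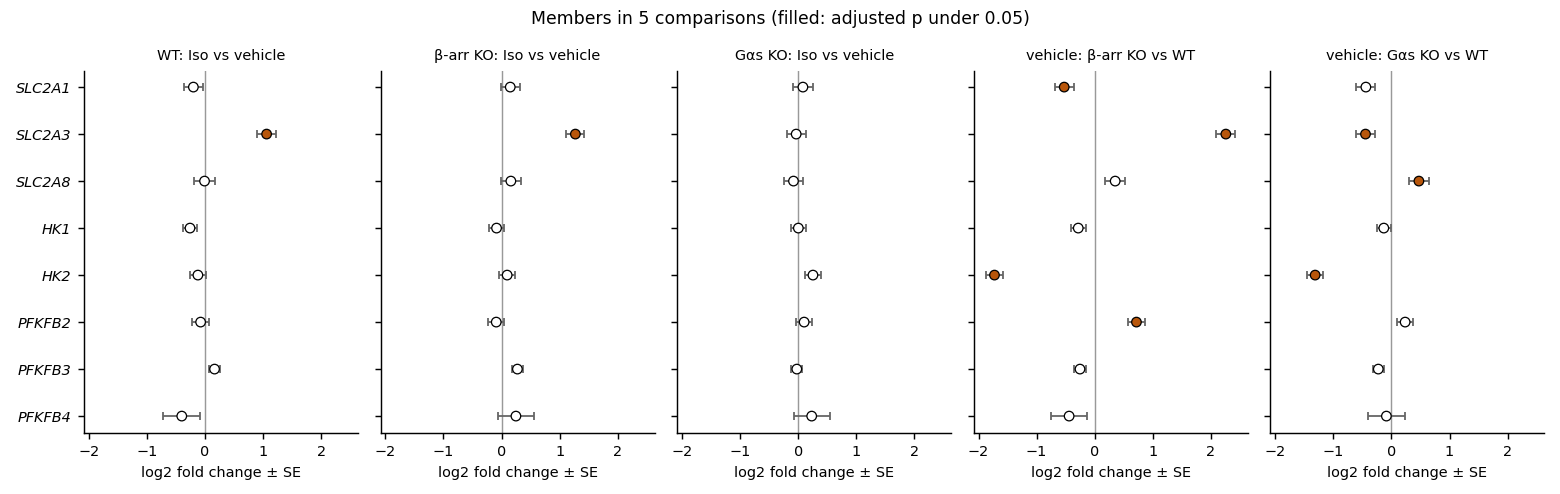
Log2 fold change (horizontal axis) of each measured member with its standard error in the 3 responses to isoproterenol and in the 2 KO lines against wildtype cells at vehicle; filled points have an adjusted p under 0.05 (edgeR). With isoproterenol SLC2A3 alone is filled, at 1.06 in wildtype cells and 1.27 for the β-arrestin1/2 KO line, while 4 and 3 members are filled in the comparisons of lines.

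SLC2A3 (ENSG00000059804) lies on the minus strand of chromosome 12 from 7919230 to 7936275 (GRCh38), next to SLC2A14 (ENSG00000173262, 7812512 to 7891148), a closely similar copy. Reads from one could be assigned to the other, so their coding sequences were compared. Over 1488 aligned coding bases of SLC2A3-201 and SLC2A14-201 (GENCODE release 29), 52 differed, an identity of 96.5%. The following 60 bases, coding bases 552 to 611 of SLC2A3-201, the stretch with the most differences past the first 30 bases, show where the copies can be told apart, with the 7 differing bases in capitals.
SLC2A3-201: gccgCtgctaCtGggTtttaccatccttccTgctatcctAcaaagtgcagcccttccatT
SLC2A14-201: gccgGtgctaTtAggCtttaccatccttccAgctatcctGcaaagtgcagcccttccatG
None of the 1339 coding stretches of 150 bases (the length of a read) in SLC2A3-201 recurred in an SLC2A14 transcript, and 69 of the 3766 such stretches of the whole transcript did (1.83%). SLC2A14 itself had at most 38.9 normalized counts in any library. Its log2 fold change was 0.39 in wildtype cells (SE 0.81) and 0.22 in β-arrestin1/2 KO cells (SE 0.70), and it was called in none of the responses.

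Almost all SLC2A3 counts, 96.9% over the libraries, belonged to the protein-coding transcript SLC2A3-201. The SLC2A3 transcripts annotated with a retained intron were few, and their sums were higher with isoproterenol in the same 2 lines. In wildtype cells they summed to 0, 14.6 and 5.33 normalized counts at basal and to 14.7, 115 and 72 with isoproterenol. In β-arrestin1/2 KO cells the sums were 41.8, 43.7 and 83.3 at basal and 260, 260 and 377 with isoproterenol. The Gαs KO sums stayed between 2.42 and 13.3. Wildtype replicate 1 with isoproterenol was level with basal replicate 2, while the groups of β-arrestin1/2 KO cells lay well apart. These sums were not tested, since the error of assigning reads to transcripts was not given.

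**Figure D3:**
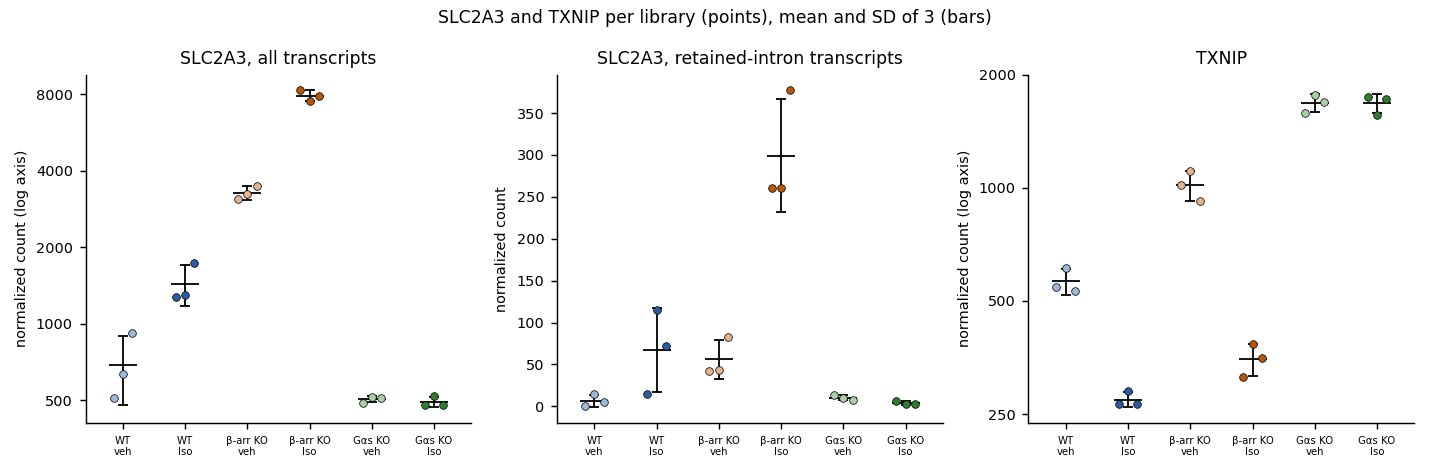
Normalized counts per library of SLC2A3 (log axis), of its retained-intron transcripts (linear axis) and of TXNIP (log axis) in the 6 groups; bars are the mean and SD of 3 libraries. With isoproterenol SLC2A3 is higher and TXNIP lower where GNAS is intact, and in Gαs KO cells the treatments overlap for both.

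Over the 6 groups the order of SLC2A3 was β-arrestin1/2 KO with isoproterenol (mean 7918 normalized counts), β-arrestin1/2 KO basal (3283), wildtype with isoproterenol (1435), wildtype basal (688), Gαs KO basal (505) and Gαs KO with isoproterenol (493). Each of the first 3 groups lay apart from the next lower one, whereas the wildtype basal and both Gαs KO groups overlapped. The tested genes whose 6 group means lay nearest to this pattern, by the root-mean-square distance of centred log2 CPM, were LYPD3 (0.34), GPRC5A (0.41) and TRIM29 (0.42), against a median distance of 1.5 over all genes. LYPD3 had a mean of 7.44 normalized counts in wildtype basal, 21.3 in wildtype with isoproterenol, 50.6 and 104.4 in the same order in β-arrestin1/2 KO and 10.8 and 7.34 in Gαs KO cells. GPRC5A had 921, 973, 3952, 5374, 382 and 351 in this order of groups. These likenesses are a description over 6 group means.

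None of the other 7 members was called with isoproterenol in either of the lines with an SLC2A3 response. In wildtype cells their log2 fold changes ran from -0.40 (PFKFB4) to 0.17 (PFKFB3), and in β-arrestin1/2 KO cells from -0.09 (PFKFB2) to 0.27 (PFKFB3). PFKFB3, whose enzyme favours the making of fructose 2,6-bisphosphate, had 683, 564 and 651 normalized counts at basal and 782, 723 and 788 with isoproterenol in β-arrestin1/2 KO cells. These groups did not overlap, but the adjusted p was 0.36 (SE 0.10, edgeR). It was 0.038 with offsets for GC content and length (log2 fold change 0.35) and 0.046 without wildtype basal replicate 1 (0.27), and it ran from 0.038 to 0.72 over 30 alternatives. SLC2A1 had 1122, 672 and 1005 normalized counts at basal and 673, 944.5 and 820 with isoproterenol in wildtype cells, and HK1 4457, 2843 and 2795 against 2747, 2866 and 2837. In both genes wildtype basal replicate 1 was the highest library, and the treatments overlapped. In wildtype cells PFKFB3 had 804, 644 and 816 at basal and 870, 866 and 802 with isoproterenol, and the ranges overlapped.

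Before stimulation, the members differed more between lines than with isoproterenol. SLC2A3 was 4.77 times as high in β-arrestin1/2 KO as in wildtype cells at basal (SD 0.29, n = 3), with a log2 difference of 2.25 (SE 0.16, adjusted p = 5e-08, edgeR). The lowest KO library, at 3101 normalized counts, was above the highest wildtype library, with isoproterenol or without. HK2, the inducible hexokinase, went the other way: 1422, 971 and 1117 normalized counts in wildtype against 364, 321 and 377 in the KO, a log2 difference of -1.73 (SE 0.14, adjusted p = 1.9e-07). PFKFB2 had 165, 196 and 224 in wildtype against 305, 332 and 324 in the KO, with a log2 difference of 0.72 (SE 0.14, adjusted p = 0.00087). For each of these 3 genes the lines did not overlap.

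SLC2A1 was the fourth member called at basal between β-arrestin1/2 KO and wildtype cells, 4 of 8 against 33.6% of all genes tested. It had 1122, 672 and 1005 normalized counts in wildtype against 576, 666 and 701 in the KO, and the ranges overlapped. Its log2 difference was -0.53 (SE 0.17, adjusted p = 0.022, edgeR). The call rested on single libraries: the adjusted p was 0.065 without wildtype basal replicate 1 (log2 difference -0.37), 0.069 without wildtype basal replicate 3, 0.097 without β-arrestin1/2 KO basal replicate 1 and 0.054 without replicate 2 of that group. Over 30 alternatives it ran from 0.001 to 0.94. Counting protein-coding transcripts only, the difference was 0.05. HK1, PFKFB3, PFKFB4 and SLC2A8 were not called, with log2 differences from -0.44 (PFKFB4) to 0.35 (SLC2A8). Without wildtype basal replicate 1, 4 members were called, in a fit that called 7368 of all 15773 genes for this comparison.

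In Gαs KO cells at basal HK2 was again lower, at 498, 456 and 460 normalized counts, with a log2 difference from wildtype of -1.31 (SE 0.14, adjusted p = 2.9e-06, edgeR). In all, 3 of 8 members were called, against 31.3% of all genes. The other two lay close to the threshold. SLC2A3 was lower by a log2 difference of -0.45 (SE 0.16, adjusted p = 0.045), and 1 of its 3 Gαs KO libraries, at 515, lay above the lowest wildtype library, at 513. The SLC2A3 call was lost in 14 of the 18 fits that left out 1 library, and the log2 difference was -0.18 without wildtype basal replicate 3. SLC2A8 had 296, 250 and 264 normalized counts against 251, 153 and 179 in wildtype cells (log2 difference 0.47, SE 0.17, adjusted p = 0.046). That call was lost in 15 of the 18 such fits, with a log2 difference of 0.32 without wildtype basal replicate 2.

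The makeup of the transporter family moved with SLC2A3. By TPM, SLC2A3 gave 20.2% ± 7.54 (SD, n = 3) of the sum of SLC2A1, SLC2A3 and SLC2A8 in wildtype cells at basal and 37.1% ± 5.52 with isoproterenol. In β-arrestin1/2 KO cells it gave 62.5% ± 2.20 at basal and 79.0% ± 0.63 with isoproterenol, more than the other two together. The Gαs KO shares were 17.0% ± 0.20 and 16.7% ± 0.73. The summed TPM of the family had a mean of 85.8 in wildtype basal, 103.3 in wildtype with isoproterenol, 146 in β-arrestin1/2 KO basal and 273 in β-arrestin1/2 KO cells with isoproterenol. The size of the share depends on SLC2A1, since 61.4% of the SLC2A1 counts were assigned to SLC2A1-208, annotated as subject to nonsense-mediated decay, 20.3% to the protein-coding SLC2A1-203 and 17.7% to SLC2A1-202, annotated with a retained intron. With protein-coding transcripts only, SLC2A3 gave 51.9% in wildtype basal, 71.1% in wildtype with isoproterenol, 82.9% and 90.5% in the β-arrestin1/2 KO line, and 39.4% and 39.3% in the Gαs KO line, in the order basal and isoproterenol, a scale chosen after seeing the data.

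HK2 gave 18.1% ± 1.77 of the TPM of HK1 and HK2 in wildtype cells at basal, 7.34% ± 0.38 in β-arrestin1/2 KO and 8.70% ± 0.37 in Gαs KO cells. HK1, the broadly expressed hexokinase, lay between 2559 and 4457 normalized counts and was called in no comparison, and the highest value was that of wildtype basal replicate 1. PFKFB3 was the leading PFKFB gene in every group, with group means of 67.8 to 80.8% of the TPM of PFKFB2, PFKFB3 and PFKFB4. HK1-202 (98.9%), HK2-201 (97.0%), PFKFB2-202 (93.8%), PFKFB4-201 (85.2%) and PFKFB3-205 (84.0%) held most of the counts of their genes. SLC2A8 was split between SLC2A8-203 (50.5%), SLC2A8-215 (19.1%) and SLC2A8-202 (12.1%).

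**Figure D4:**
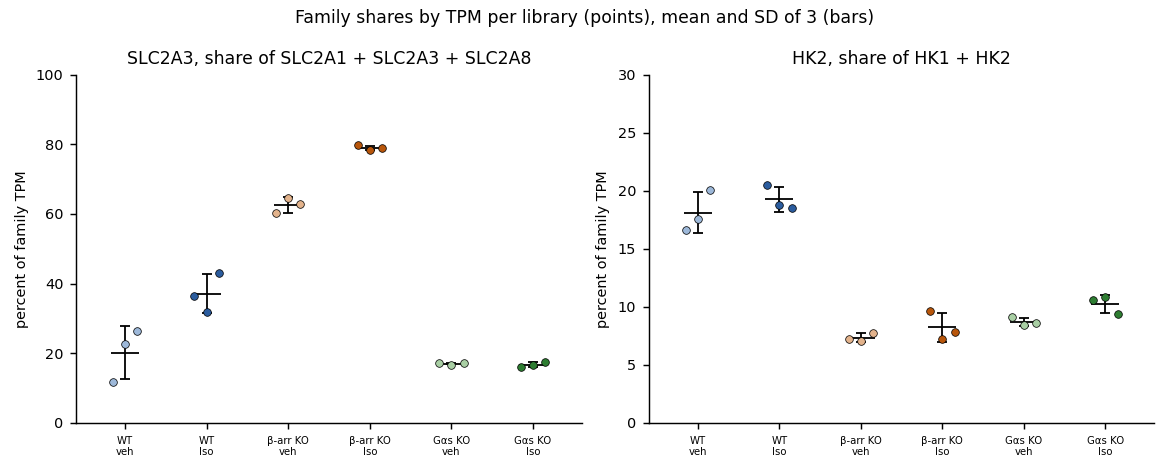
Share of family TPM (vertical axis, percent) given by SLC2A3 among SLC2A1, SLC2A3 and SLC2A8 (left, axis to 100%) and by HK2 among HK1 and HK2 (right, axis to 30%) in each library; bars are the mean and SD of 3. The SLC2A3 share is near 17% in Gαs KO cells and reaches 79.0% in β-arrestin1/2 KO cells with isoproterenol, and the HK2 share is lower in both KO lines than in wildtype cells.

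RefSeq promoter windows (GRCh38.p14, 250 bases before to 50 after a start, 300 bases in all) were at hand for 6 of the 8 measured members, 14 windows in all, and 7 of these held the start of a main transcript. SLC2A3 and PFKFB2 had none and were not searched. The windows at hand were searched on both strands for the cAMP response element TGACGTCA and its shorter core TGACG. The other motifs were the hypoxia response cores ACGTG and GCGTG, and the E-box CACGTG, in which ACGTG is contained. None of the 7 held TGACGTCA, which 1.85% of all 35116 windows hold. TGACG was in 3 of the 7 (24.6% of all windows), ACGTG in 2 (21.4%), GCGTG in 5 (36.5%) and CACGTG in 1 (7.26%). The 30 bases around each TGACG match are shown for HK2, which was lower in both KO lines, and for the 2 starts of PFKFB3, with every searched motif in capitals. They lie on the plus strand at chr2:74834068-74834097, chr10:6144837-6144866 and chr10:6202858-6202887, in this order.
HK2-201: atggGCGTGcgCACGTCActgatccggagg
PFKFB3-205: ctcctccgcgccgTGACGcgccaggctttg
PFKFB3-203: cccgccccgaggcTGACGtacgcgtctgcg
In HK2 the TGACG match, read on the minus strand, overlaps the minus-strand match of ACGTG. The PFKFB3-203 start lies within the PFKFB3 gene, and this transcript took 8.50% of the PFKFB3 counts, with 0 to 198 normalized counts and no separation of treatments in any line.

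Around these members, other genes of glucose handling were counted from 5 lists. With isoproterenol the gene called in more than 1 line was TXNIP, whose protein holds back glucose uptake by promoting the internalization of GLUT proteins. TXNIP had 545, 612 and 532 normalized counts at basal and 267, 288 and 265 with isoproterenol in wildtype cells, a log2 fold change of -1.04 (SE 0.10, adjusted p = 1.4e-05, edgeR). In β-arrestin1/2 KO cells it had 1017, 1110 and 921 against 314, 383 and 351 (log2 fold change -1.54, SE 0.10, adjusted p = 4.1e-08). The Gαs KO libraries had 1584, 1763 and 1693 against 1741, 1563 and 1721, with a log2 fold change of -0.0045 (SE 0.093, adjusted p = 1). The groups lay apart in the first 2 lines and overlapped in the last. The Gαs KO response differed from that of wildtype cells by 1.04 (adjusted p = 0.0011) and from that of β-arrestin1/2 KO cells by -1.54 (β-arrestin1/2 KO minus Gαs KO, adjusted p = 5.8e-06). At basal TXNIP was higher than in wildtype cells by 0.85 in β-arrestin1/2 KO and 1.58 in Gαs KO cells on the log2 scale (adjusted p = 5.4e-06 and 6.8e-09). It was the 1 gene called of 11 tested in the list of uptake regulators in either response, where the list's median was 0.08 (wildtype) and -0.01 (β-arrestin1/2 KO), near 0 as over all genes. The wildtype call for TXNIP was lost with the wildtype libraries alone (adjusted p = 0.088, the highest of 30 alternatives, whose lowest was 6.1e-19).

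Of 11 tested targets of the hypoxia-inducible factors (known regulators of many glycolytic genes), 2 were called with isoproterenol in β-arrestin1/2 KO cells. VEGFA, the angiogenic growth factor, went from a mean of 897 to 1337 normalized counts (log2 fold change 0.58, SE 0.10, adjusted p = 0.0034, edgeR). ANKRD37 went from 31.7 to 92.0 (1.52, SE 0.32, adjusted p = 0.022), a call lost in 5 of the 18 fits without 1 library. In wildtype cells neither was called, at 0.31 for VEGFA (adjusted p = 0.27) and 1.03 for ANKRD37 (adjusted p = 0.3), and the difference between the lines was not called for either (adjusted p = 0.94 and 1). None of the 7 other sugar transporters tested, the 10 genes of other entry steps or the 15 genes of lower glycolysis was called in any of the 3 responses by edgeR. In these 3 lists 0, 3 and 1 genes had an unadjusted p under 0.05 in wildtype cells, and 0 did in either KO line. Over all 5 lists edgeR called 1 gene with isoproterenol in wildtype cells (DESeq2 1), 3 for the β-arrestin1/2 KO line (DESeq2 4) and 0 for the Gαs KO line (DESeq2 0). Without wildtype basal replicate 1, edgeR called 7 in β-arrestin1/2 KO cells. Calls also rose over all genes in that fit, to 1849 of 15773 from 175 of 15519 with all libraries.

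Many of these genes differed between lines at basal. In β-arrestin1/2 KO cells 9 of 15 tested genes of lower glycolysis were lower than in wildtype cells and 1 was higher, with a list median of -0.62 on the log2 scale against 0.02 over all genes. ALDOC (-1.02) and ALDOA (-0.78), both aldolases, and PGK1 (-0.98), which makes the first ATP of the pathway, were the lowest of those called, with adjusted p-values of 3.4e-05, 0.00073 and 3.5e-08, and SLC16A3, a lactate exporter, was the gene that was higher (0.79, adjusted p = 0.0076). Against wildtype cells, Gαs KO cells had 4 of the 15 lower and 0 higher, with a median of -0.23, and ALDOC (-0.57), ALDOA (-0.56), TPI1 (-0.48) and GAPDH (-0.42) were those lower. Wildtype basal replicate 1, the library that stood apart in GC content, enlarged the differences of the genes that were lower, whereas SLC16A3 was at 1.17 without it. Without it ALDOA was at -0.45 in β-arrestin1/2 KO cells, and the list median was -0.42 there and -0.07 in Gαs KO cells. The Gαs KO differences then became -0.40 for ALDOC, -0.24 for ALDOA, -0.21 for TPI1 and -0.18 for GAPDH, and all of these calls were kept. Of the other entry steps, 4 of 10 were lower in β-arrestin1/2 KO cells: FBP1 (-2.39, from a mean of 23.8 normalized counts to 4.47), PFKM (-0.89), GPI (-0.66) and PFKP (-0.38). The PFKP libraries of the 2 lines overlapped, and its call was lost in 16 of the 18 fits without 1 library, with a difference of -0.09 (adjusted p = 0.14) without wildtype basal replicate 1. In Gαs KO cells TIGAR (-0.9998) and GPI (-0.38) were lower and PFKL (0.54) was higher, 3 of 10 called. Without wildtype basal replicate 1 GPI was at -0.18 and PFKL at 0.85, both still called, and the PFKL call was lost without wildtype basal replicate 3 (0.39). SLC2A10 was the 1 transporter called of 7 tested, higher by 1.43 in β-arrestin1/2 KO and by 1.02 in Gαs KO cells. Of the hypoxia targets, 4 of 11 were called lower in each KO line, with medians of -0.24 and -0.33 (-0.48 and -0.32 without wildtype basal replicate 1, when 6 and 7 were called lower, and 1 higher in β-arrestin1/2 KO cells). NDRG1 (-1.63 and -1.27), VEGFA (-0.63 and -0.73) and EGLN3 (-0.58 and -0.96) were called lower in both, and the fourth was BNIP3 (-0.51) in β-arrestin1/2 KO and P4HA2 (-0.35) in Gαs KO cells. Of 11 uptake regulators, 3 were called in β-arrestin1/2 KO cells (TXNIP higher, MLX at -0.59 and TBC1D4 at -0.30 lower, the last lost in 5 of the 18 fits without 1 library). In Gαs KO cells 6 of these regulators were called, 2 of them higher (TXNIP, and ARRDC4 at 0.64). The other 4 were lower: MLXIPL (-0.88), TBC1D4 (-0.55), TBC1D1 (-0.43) and VAMP2 (-0.29), the last lost in 2 of the 18 fits. Since 33.6% and 31.3% of all genes were called in these comparisons, the shares of called genes are to be read against that background. Without wildtype basal replicate 1 that background was larger. It was 7368 (β-arrestin1/2 KO) and 7236 (Gαs KO) of 15773 genes, against 5208 and 4864 of 15519 with all libraries. Beside them, 3 of the fibroblast markers were tested, and their part in these differences was not tested. In β-arrestin1/2 KO cells COL3A1 was called lower (log2 difference -1.37), and the other 2 were not called, at 0.205 and 0.632. In Gαs KO cells COL1A1, LUM and COL3A1 were all called, 2 higher, among them COL3A1 (2.17), and 1 lower (-0.755).

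**Figure D5:**
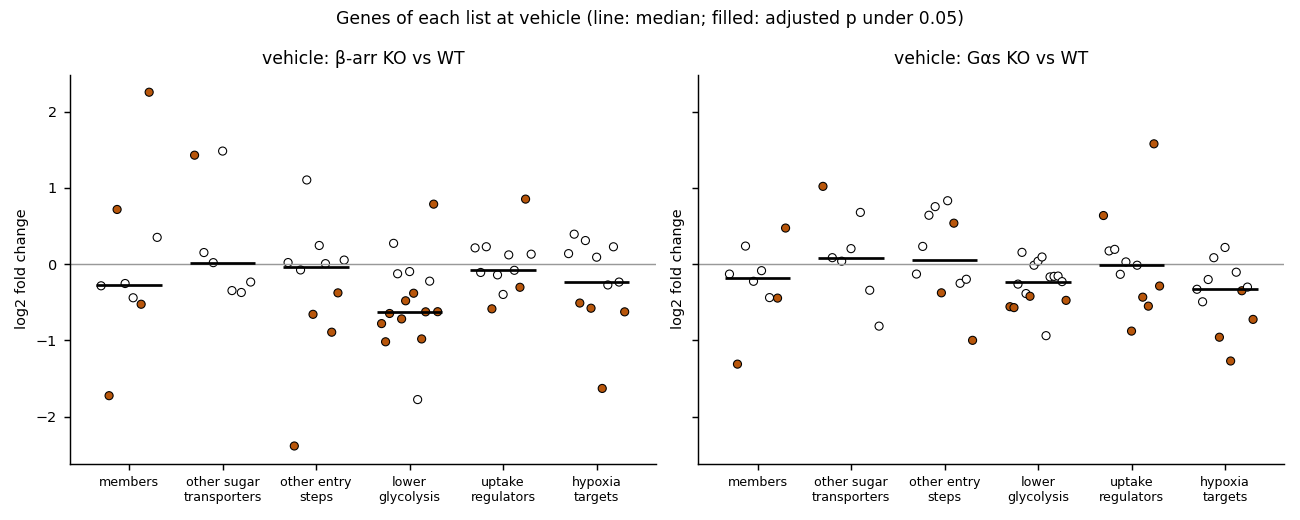
Log2 fold change (vertical axis) at vehicle of every tested gene of the members and of 5 lists in β-arrestin1/2 KO (left) and Gαs KO (right) against wildtype cells; lines are list medians and filled points have an adjusted p under 0.05 (edgeR). Among the lists the lower glycolysis genes have the lowest median in β-arrestin1/2 KO cells, -0.62.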

How the data were processed

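RNA-Seq libraries of 18 samples in 6 groups of 3 were analysed. The deposited files hold expected counts, which the authors estimated for each transcript from 150-bp pairs with Salmon 1.7.0 and did not normalize, and the submitters' processing notes also name DESeq2. The transcript index is not given in the sources used here. Of 184844 transcripts, 161798 were joined by Ensembl identifier to GENCODE release 29 (GRCh38), which kept 92.92 to 93.75% of the counts of a library (17908597 to 25019834). Gene sums were rounded, scaled by TMM and filtered with filterByExpr, which left 15519 of 34255 genes.

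A quasi-likelihood model with 1 coefficient per group was fitted in edgeR 4.0.16 (R 4.3.3), and all adjusted p-values cover all genes tested. SE was computed as the log2 fold change, without sign, over the square root of F. Replicates are given as biological replicates, with nothing more on how they were prepared. The TPM values were computed here, from annotated lengths. No exact permutation test was used, because 3 libraries against 3 cannot reach a two-sided p of 0.05. The fitting script was tested on simulated data.

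The members, lists and tests were chosen with earlier results of these data known. Named were all members, list genes called in a response, up to 3 called genes per list and basal comparison with the largest difference (beyond these, GAPDH, GPI, PFKP, EGLN3, BNIP3, P4HA2, MLX, TBC1D4, TBC1D1 and VAMP2 where counts were itemized), SLC2A14, the targeted genes and the 3 genes nearest to SLC2A3. Alternatives were DESeq2 1.42.0 (Wald test, size factors), upper-quartile scaling, filters of at least 1 count or 10 counts in every library, only the groups compared, a replicate block, each library left out, an adjusted p under 0.01, offsets for GC content and length (lowess span 0.3) alone and with the block, protein-coding transcripts only, and SLC2A3 and SLC2A14 summed. The family shares from protein-coding transcripts were added after seeing the data.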

Additional observations from a re-analysis of the deposited data

Results flagged for a closer look

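The responses of 2 genes differed between lines by a test of the difference itself (edgeR's interaction term, adjusted over all genes). SLC2A3 rose more with isoproterenol in β-arrestin1/2 KO than in Gαs KO cells, by 1.304 on the log2 scale (adjusted p = 0.0096). TXNIP fell where GNAS was intact, and its Gαs KO response was higher than the wildtype response by 1.04 (adjusted p = 0.0011), while the β-arrestin1/2 KO response minus the Gαs KO response was -1.54 (adjusted p = 5.8e-06).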

How the results depend on the processing

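The count of members called was the same under all 30 alternatives for the Gαs KO response (0), the difference of the β-arrestin1/2 KO from the wildtype response (0) and its difference from the Gαs KO response (1). For the wildtype response it was 0 in place of 1 with only the groups compared. For the β-arrestin1/2 KO response it was 2 in place of 1 with GC and length offsets, with these offsets and the replicate block, and at most 2 with 1 library left out. For the difference of the Gαs KO from the wildtype response it was 1 in place of 0 with DESeq2's Wald test, with all genes of at least 1 count, with the replicate block and with GC and length offsets without or with the block, and 0 to 1 with 1 library left out. At basal it was 3 to 6 for β-arrestin1/2 KO cells over all alternatives. For Gαs KO cells it was 1 in place of 3 with only the groups compared and at an adjusted p under 0.01, and 1 to 4 with 1 library left out. Of 1798 refitted log2 fold changes (60 of members and list genes, each under 29 or 30 alternatives), 1674 kept their direction and side of the threshold, 112 lost the call, 10 gained it and 2 turned, which were SLC2A1 at basal in β-arrestin1/2 KO cells with protein-coding transcripts only (0.054) and the SLC2A3 response of β-arrestin1/2 KO minus that of wildtype cells, which was -0.063 without wildtype basal replicate 3 and up to 0.382 with another library left out. The causes were not tested. Same-numbered libraries did not deviate together (correlations across genes of -0.10 to 0.08), so the numbers were not taken as pairs; with the replicate block the counts of members called were 1, 1, 0, 0, 1, 1, 5 and 2, in the order of the responses (wildtype, then β-arrestin1/2 KO, then Gαs KO), β-arrestin1/2 KO minus wildtype, Gαs KO minus wildtype, β-arrestin1/2 KO minus Gαs KO, and β-arrestin1/2 KO and Gαs KO at basal. As shares of counts without length, SLC2A3 gave 38.1% of the 3 transporters in wildtype basal and 88.8% in β-arrestin1/2 KO cells with isoproterenol. PFKFB4 and SLC2A14, with at most 124 and 38.9 normalized counts, are limited by depth.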
